A study of Mus musculus with 4 samples.

Results

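The macrophages of the newborn mouse kidney were taken from 2 single-cell RNA sequencing libraries, 1 for each genotype. Cell barcodes were chosen by measured transcripts: a barcode counted as a macrophage, and is called a member here, when at least 4 of 8 genes were detected in it: C1qa, C1qb, C1qc, Aif1, Fcgr3, Csf1r, Tyrobp and Fcer1g. Barcodes with 5 or more molecules of the neutrophil gene S100a8 or of the fibroblast gene Col3a1 were left out, which removed 25 and 35 barcodes from the floxed library and 22 and 98 from the Six2Cre library. Among barcodes with at least 1000 UMIs (unique molecular identifiers, each standing for 1 RNA molecule), at least 500 genes and under 15% mitochondrial UMIs, 557 of 15645 were members in the floxed library and 757 of 21188 in the Six2Cre library, or 1314 of 36833 in all. No barcode sequence was shared between members of the libraries, while 99 of the kept barcodes were.

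The floxed library came from whole kidney of a newborn mouse of the genotype Six2CreTet2/3f/f, with floxed alleles of the DNA demethylation genes Tet2 and Tet3. The other library came from whole kidney of a newborn Six2Cre mouse, and Six2Cre was thus carried by both. Six2 drives the recombinase in nephron progenitors, whereas macrophages descend from blood-forming lineages, so the macrophages are not a cell type that this Cre is designed to reach. Strain, sex and the number of kidneys pooled were not given in the sources used here, and the 2 bisulfite sequencing samples of the series were not analysed here. With 1 library for each genotype there was no replicate and no test: every interval below is a 95% interval that covers counting error only, exact unless stated otherwise (Clopper-Pearson for shares, conditional binomial for ratios), and a difference between genotypes cannot be told apart from one between the 2 animals or preparations.

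Tissue macrophages engulf dying cells and debris, degrade them in lysosomes and recycle their iron and lipids. In the fetal and newborn kidney they come from the yolk sac, the fetal liver and later the bone marrow, and resident cells carry scavenger receptors such as Mrc1 and Lyve1. Macrophages also sense interferons, secreted signals that switch on a large set of antiviral genes, and a subset displays antigen on MHC class II molecules.

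Members made up 3.56% of kept barcodes in the floxed library (95% interval 3.28 to 3.86) and 3.57% in the Six2Cre library (3.33 to 3.83), a ratio of 0.996 (0.892 to 1.11). Without members with markers of other types, the shares were 0.920% and 1.39%. That filter took out 413 floxed and 463 Six2Cre members, and it counted 5 or more haemoglobin UMIs as another type. The haemoglobin limit was met by 370 floxed and 105 Six2Cre members, so it did not act alike on the libraries. The median depth of all members was 3930 UMIs in the floxed library and 4693 UMIs in the Six2Cre library. Over all kept barcodes it was 4898 and 6213 UMIs. Summed over members, 2538752 UMIs were available in the floxed library and 4946198 in the Six2Cre library. Levels below are CPM, a gene's share of these sums scaled to a total of 1000000 UMIs.

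The label was checked against genes that the rule did not use. Outside the 8 rule genes, those most restricted to members in both libraries included the mannose receptor Mrc1 (327-fold over all other kept barcodes in the floxed library and 181-fold in the Six2Cre library), the membrane protein gene Ms4a7 (266-fold and 173-fold) and the Fc receptor-like gene Fcrls (289-fold and 165-fold). The chemokine genes Ccl7, Ccl12 and Ccl2 followed, at between 217-fold and 238-fold in the floxed library and between 141-fold and 155-fold in the Six2Cre library. These genes are known from macrophages, as the label says, and their enrichment is a description, since the rule chose the barcodes. The 8 B cell markers summed to 66.2 CPM in floxed members and 70.8 CPM in Six2Cre members. Of these sums Cd79b held 43.7 CPM and 39 CPM and Ebf1 22.5 CPM and 30.7 CPM, while Ms4a1 was at 0 in both. Markers of dendritic cells (10 genes) summed to 41 CPM in floxed and 22.6 CPM in Six2Cre members. Of these, Cd7 and Ccr7, which marks migratory dendritic cells, were at 0 in both. Timd4, a receptor for dying cells on long-lived resident macrophages of several tissues, gave 7 UMIs in the floxed library and 41 UMIs in the Six2Cre library. Markers of neutrophils (10 genes) summed to 72.1 CPM in floxed and 41.4 CPM in Six2Cre members, of T, NK and innate lymphoid cells (9 genes) to 48.8 CPM and 68.5 CPM, and of mast cells or basophils (8 genes) to 18.9 CPM and 22.4 CPM.

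The content of macrophage transcripts was uneven among members. In the floxed library 112 members (20.1%), holding 31.1% of the members' UMIs, had less than 0.5% of their UMIs from the 8 rule genes, and in the Six2Cre library 192 members (25.4%), holding 47.1% of the UMIs, did. These poor members were deeper than the others, at medians of 5457 UMIs in the floxed library and 7069 UMIs in the Six2Cre library, against 3493 and 3857 UMIs in the 445 and 565 remaining members, called rich here. At least 3 of 8 endothelial markers were detected in 21 members of the floxed library and 81 of the Six2Cre library. Conversely, 5 or more haemoglobin UMIs were found in 370 floxed members and 105 Six2Cre members, and the summed level of 7 erythroid markers was 14604 CPM in floxed members and 2420 CPM in Six2Cre members. The 8 endothelial markers summed to 197 CPM in floxed members and 496 CPM in Six2Cre members, and 8 proximal tubule markers to 601 CPM and 1227 CPM. These levels moved with the genotype, and their part in the results below was not tested. Values are therefore given for all members and for rich members, a division chosen after the data were seen.

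**Figure D1:**
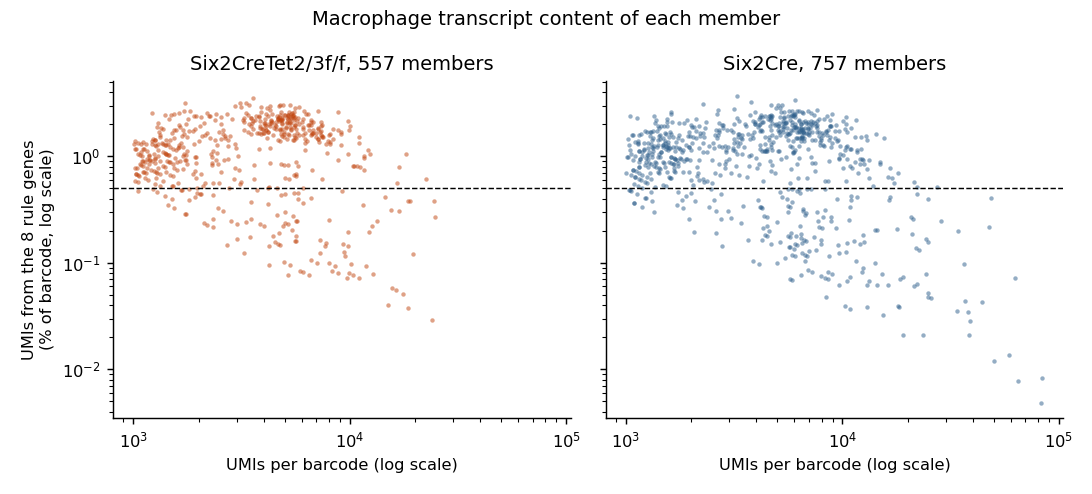
Each point is a member barcode, with floxed members on the left and Six2Cre members on the right; the x axis gives UMIs per barcode and the y axis the percent of them from the 8 rule genes, both on log scales. The dashed line at 0.5% separates 445 rich from 112 poor members in the floxed library and 565 from 192 in the Six2Cre library; the largest member held 24829 UMIs in the floxed library and 83892 UMIs in the Six2Cre library.

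At the edge of the rule, the 84 floxed and 103 Six2Cre members with exactly 4 rule genes held Lyz2, a lysozyme gene of myeloid cells, at 1483 CPM in the floxed library and 366 CPM in the Six2Cre library. The barcodes just outside, 114 in the floxed library and 128 in the Six2Cre library with 3 rule genes, held it at 510 CPM and 78.3 CPM. The lysosomal protease gene Ctss was at 428 CPM and 161 CPM inside, and at 193 CPM and 41.7 CPM outside. Both genes were thus lower just outside the rule than just inside it.

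The 8 rule genes also define the rich members, so their levels are a description and not a check. Their ratios were nearer to 1 in rich members than in all members. C1qa, a chain of the complement starter C1q, was at 2143 CPM in floxed members and 1516 CPM in Six2Cre members, but at 2972 CPM and 2665 CPM in rich members. Fcer1g, the signalling chain of Fc receptors, was at 2023 CPM and 1693 CPM over all members, and at 2756 CPM in rich floxed members, against 2916 CPM in rich Six2Cre members. Over all members the 8 ratios lay between 1.19 and 1.52, and over rich members between 0.941 and 1.21.

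A gene was called higher or lower when its level reached 25 CPM in 1 library and the whole interval of its ratio lay beyond 1.5-fold, a rule of size and not a test. Of 5729 genes at 25 CPM, 170 were higher (2.97%) and 239 were lower (4.17%) in floxed members, and with trimmed mean (TMM) scaling these counts became 217 and 192. In rich members 105 of 5415 genes were higher (1.94%) and 190 were lower (3.51%). Rich members kept 90 of the 170 higher calls (52.9%) and 116 of the 239 lower calls (48.5%). Under the same rule 1.58% of genes were higher and 1.9% lower in stroma, 1.98% and 2.24% in endothelium, 1.07% and 1.32% in neutrophils, and 1.91% and 2.1% over all non-members. The median log2 ratio over all tested genes was -0.08 in all members and -0.03 in rich members, so neither set was shifted as a whole by more than 0.1.

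The interferon response list had the lowest median ratio of the 18 gene lists in floxed members relative to Six2Cre members. All 12 listed genes that reached 25 CPM were lower, with a median log2 ratio of -2.23, and in rich members all 13 that reached it were lower, with a median of -2.80. Ifit3, which encodes an antiviral RNA-binding protein, gave 18 UMIs in 17 floxed members and 710 UMIs in 333 Six2Cre members, or 7.09 CPM and 144 CPM (ratio 0.0494, interval 0.0291 to 0.0786). Isg15, a ubiquitin-like modifier, was at 31.9 CPM in floxed members, against 169 CPM in Six2Cre members (ratio 0.189, 0.148 to 0.237). The Ifit3 molecules of the Six2Cre library were spread over many members, with at most 11 in any barcode.

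Other genes of the response were lower as well. Irf7, the factor that amplifies interferon production, was at 23.6 CPM in floxed members and 131 CPM in Six2Cre members (ratio 0.181, 0.136 to 0.236). Bst2, which tethers budding virus to the cell surface, was at 116 CPM and 443 CPM. The ratios of Ifit1 (0.0445), Ifit2 (0.0925), Oasl2 (0.241) and Rsad2 (0.245), all antiviral effectors, were also below 1. So was that of Mx1 (0.117), which the reference annotation lists as a transcribed pseudogene. Ifitm3 and Ifi27l2a, which were abundant in both libraries, had the mildest ratios of the list, at 0.454 and 0.586. The chemokine gene Cxcl10, an interferon target that draws in T cells, was at 22.1 CPM in floxed members and 97 CPM in Six2Cre members.

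**Figure D2:**
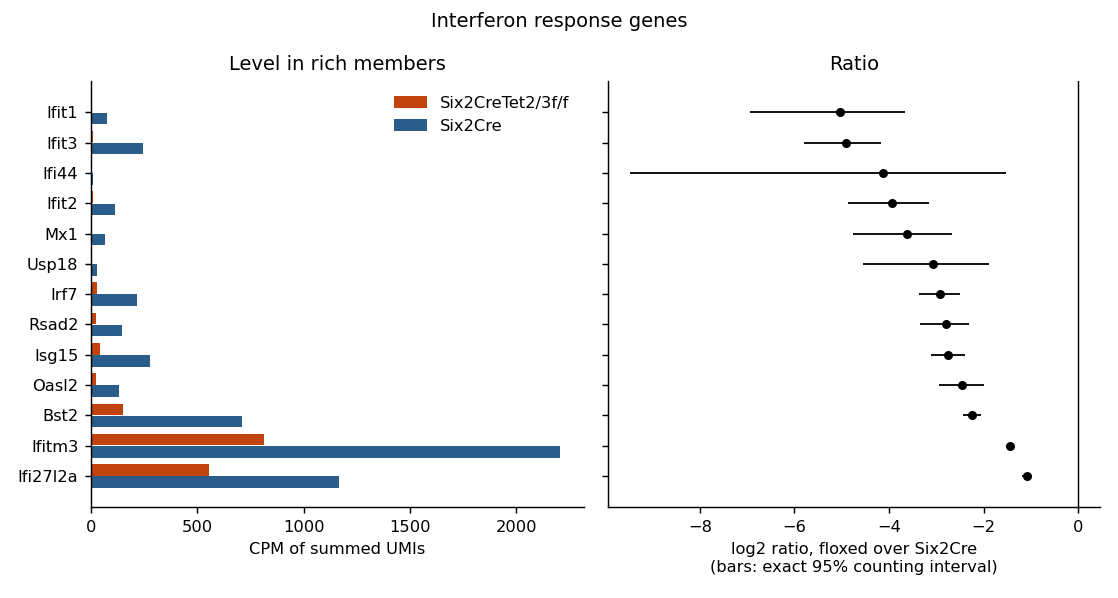
Left, CPM of 13 of the 14 listed interferon response genes in rich members, with floxed members in orange above Six2Cre members in blue; right, the log2 ratio of floxed over Six2Cre with its exact 95% counting interval. All 13 points lie left of 0, and the median of the whole list, over the genes that reached 25 CPM, was -2.80.

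Promoters of 4 of these genes are shown because they hold letters of the interferon-stimulated response element, the motif that interferon-activated factors are known to bind. The 250 bases before the gene start are from RefSeq (GRCm38.p6), given 5′ to 3′ on the strand of the gene, and capitals mark matches to GAAA, any 2 bases and GAAA again, or to the reverse complement of this pattern. Ifit1 lies at chr19:34640639-34640888 (plus strand), Isg15 at chr4:156200819-156201068 (minus strand), Bst2 at chr8:71537473-71537722 (minus strand) and Rsad2 at chr12:26456453-26456702 (minus strand).
Ifit1: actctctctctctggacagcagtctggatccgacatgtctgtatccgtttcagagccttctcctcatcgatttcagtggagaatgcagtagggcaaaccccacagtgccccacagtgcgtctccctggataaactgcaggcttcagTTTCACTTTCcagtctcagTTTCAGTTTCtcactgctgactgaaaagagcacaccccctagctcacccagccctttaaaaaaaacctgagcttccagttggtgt
Isg15: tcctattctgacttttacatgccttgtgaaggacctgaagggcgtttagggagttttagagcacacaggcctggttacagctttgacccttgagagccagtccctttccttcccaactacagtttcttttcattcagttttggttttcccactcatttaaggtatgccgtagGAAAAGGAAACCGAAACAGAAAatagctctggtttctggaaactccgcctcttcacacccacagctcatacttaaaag
Bst2: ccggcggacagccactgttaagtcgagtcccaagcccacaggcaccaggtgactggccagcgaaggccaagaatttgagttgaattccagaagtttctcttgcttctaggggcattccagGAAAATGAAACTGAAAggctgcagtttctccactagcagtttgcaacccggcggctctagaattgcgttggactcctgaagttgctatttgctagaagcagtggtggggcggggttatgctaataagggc
Rsad2: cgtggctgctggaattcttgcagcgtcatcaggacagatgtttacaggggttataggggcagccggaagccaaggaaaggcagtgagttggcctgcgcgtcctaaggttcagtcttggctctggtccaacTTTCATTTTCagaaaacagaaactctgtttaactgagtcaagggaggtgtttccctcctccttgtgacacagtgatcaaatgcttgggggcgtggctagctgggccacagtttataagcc
The matches of Ifit1 began 104 and 85 bases before the gene start. In Isg15 3 overlapping matches began 78, 72 and 66 bases before it, and in Bst2 2 overlapping ones began 130 and 124 bases before it. Rsad2 had 1 match, 120 bases before its start. A promoter sequence was available for 10 of the 14 listed interferon genes, and 5 of these held a match on either strand. Besides the 4 shown, this was Ifit3, whose window lies before another start than the gene start listed for it. The windows of Ifit2, Irf7 and Oasl2, which held no match, also ran past their listed gene starts. For these genes not all of the 250 bases before the listed start were searched. Over all genes with a promoter sequence, 936 of 27025 (3.46%) held one. Among the genes lower in floxed members with a promoter, 21 of 185 (11.4%) held it, among the higher ones 4 of 116 (3.45%), and among all tested ones 162 of 4543 (3.57%). A match describes the letters of the window and does not show that a factor binds there.

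The response was counted in single members after each barcode was thinned to 1000 UMIs, so that depth did not set the share. At least 2 of 12 interferon genes were detected in 24 of 557 floxed members (4.31%, interval 2.78 to 6.34), against 284 of 757 Six2Cre members (37.5%, 34.1 to 41.1). Without thinning the shares were 19.7% and 73.7%. In rich members the thinned shares were 4.72% and 47.1%, and without members with markers of other types 7.64% and 39.1%. Before thinning, the 12 genes gave 675 UMIs over all floxed members and 6502 UMIs over all Six2Cre members. At 1000 UMIs per barcode the share falls with this level. It therefore cannot tell fewer responding members from a lower level in each member. The 12 genes left out Ifitm3 and Ifi27l2a from the list of 14, and this count was added after the data were seen.

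Other cells of the same libraries were compared to place the macrophage values. In endothelial barcodes the thinned interferon share was 10.1% in the floxed library and 31.5% in the Six2Cre library, in stromal barcodes 0.378% and 4.56%, in neutrophils 1.08% and 9.40%, and in proximal tubule 0.121% and 0.624%. The share was lower in the floxed library in each of these classes, although in proximal tubule the intervals overlap. Bst2 had a ratio of 0.263 in members, 0.328 in stroma, 0.384 in endothelium and 0.264 over all non-members. The log2 ratio of Ifit3 in members minus that over all non-members was -1.96 (normal approximation to the counting interval, -2.67 to -1.25). For Isg15 the same difference was -0.21, with an interval of -0.56 to 0.14, which includes 0. Neither difference was tested across animals.

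MHC class I genes, whose products display peptides of the cell's own proteins and which respond to interferon, had log2 ratios below 0 for all 7 that were tested (median -0.37). Of these, 1 was called lower over all members, and 4 were in rich members (median -0.88). H2-K1, a heavy chain, was at 245 CPM in rich floxed members and 636 CPM in rich Six2Cre members (ratio 0.385, 0.345 to 0.428). B2m, the shared light chain, was at 761 CPM and 1336 CPM (ratio 0.569, 0.534 to 0.607). In endothelium H2-K1 had a ratio of 1.2 (1.06 to 1.35), on the other side of 1 from the macrophages.

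Several genes of resident scavenger macrophages were higher in the floxed library. Mrc1, a receptor for mannose-bearing glycoproteins on chromosome 2 (14229414 to 14332023, GRCm38), was at 811 CPM in floxed members and 286 CPM in Six2Cre members (ratio 2.83, 2.65 to 3.03). Lyve1, a hyaluronan receptor, was at 292 CPM and 73.2 CPM (ratio 3.99, 3.51 to 4.53), and Cd163, the haemoglobin scavenger receptor, at 174 CPM and 59 CPM (ratio 2.94, 2.53 to 3.42). All 3 stayed past the size rule in rich members, with ratios of 2.23, 3.22 and 2.3. Stab1, which clears modified lipoproteins, and Cd36, a fatty acid and scavenger receptor, had ratios of 2.12 and 2.86 in rich members.

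Not every gene of the resident list shared the direction. Timd4, which is on that list, gave 7 UMIs in 7 floxed members and 41 UMIs in 37 Six2Cre members. That is a lower share of the floxed total, and the gene did not reach 25 CPM. Folr2, a folate receptor of resident macrophages, was at 42.5 CPM in floxed members and 44.1 CPM in Six2Cre members (ratio 0.965, 0.759 to 1.22), with a ratio of 0.766 (0.599 to 0.973) in rich members. F13a1, a coagulation factor subunit, was called higher over all members (ratio 1.71) and not in rich members (1.35, 1.23 to 1.47). Pf4, a chemokine gene shared with platelets, was at 4725 CPM in floxed members and 1898 CPM in Six2Cre members, and its 6-gene platelet marker list summed to 4744 CPM and 1903 CPM. In that list the platelet chemokine gene Ppbp gave 28 UMIs in 19 floxed members and 6 UMIs in 6 Six2Cre members, Itga2b gave 16 and 17 UMIs, and Gp1bb was at 0 in both libraries. The part of platelet RNA in the Pf4 level was not tested.

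Counted by barcode, at least 3 of the 10 resident genes were detected after thinning in 207 of 557 floxed members (37.2%, 33.1 to 41.3), against 143 of 757 Six2Cre members (18.9%, 16.2 to 21.9). The shares without thinning were 58.9% and 47.7%, and in rich members they were 45.6% and 24.96% after thinning. The background of this count was low, at 0.0533% in floxed and 0.102% in Six2Cre endothelial barcodes, whose median depths were 3698 and 5296 UMIs. Mrc1 itself was detected in 38.8% of thinned floxed members and 19.8% of thinned Six2Cre members, against 0.160% and 0.178% of thinned endothelial barcodes. Of the floxed members with resident genes 13 of 207 (6.28%) also had interferon genes, against 81 of 143 (56.6%) in the Six2Cre library, beside interferon shares of 4.31% and 37.5% over all members. Of the members with interferon genes, 13 of 24 (54.2%) floxed and 81 of 284 (28.5%) Six2Cre ones also had resident genes. Ifit3 was at 11.2 CPM in resident floxed members and 321 CPM in resident Six2Cre members, and at 4.87 CPM and 109 CPM in the members without the resident genes.

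**Figure D3:**
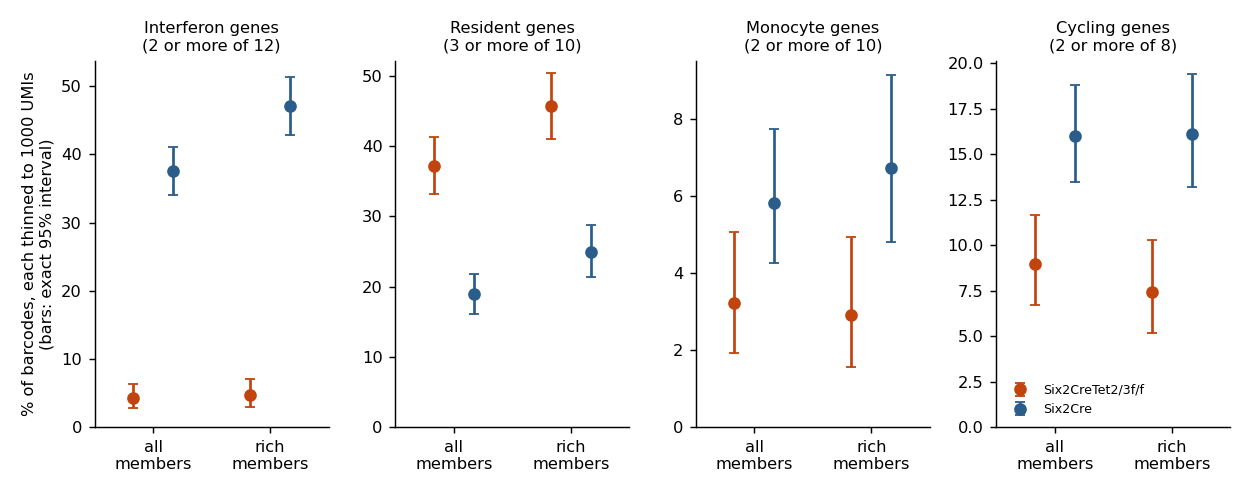
Percent of barcodes with at least 2 interferon, 3 resident, 2 monocyte or 2 cycling genes after thinning to 1000 UMIs, for all and for rich members, with floxed members in orange to the left of Six2Cre members in blue and exact 95% intervals. The interferon, monocyte and cycling shares are lower in the floxed library (4.31% against 37.5%, 3.23% against 5.81% and 8.98% against 16.0% over all members), and the resident share is higher (37.2% against 18.9%).

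Of 16 tested phagocytosis receptors and bridging molecules, 8 were called higher and none lower over all members (median log2 ratio 0.77), and 5 were higher in rich members (0.50). Marco, a receptor for bacteria and particles, gave 100 UMIs in 18 floxed members and 17 UMIs in 7 Six2Cre members, and 79.0% of the floxed UMIs came from 3 barcodes. Mertk and Axl, the receptors for dying cells, lay at 52 CPM and 50.9 CPM in rich floxed members and at 50.9 CPM and 52.4 CPM in rich Six2Cre members, with intervals that include 1. Gas6, their bridging ligand, was higher over all members (ratio 1.9) and had a ratio of 1.65 (1.41 to 1.94) in rich members.

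Lysosomal genes had 6 of 19 tested genes higher and none lower (median log2 ratio 0.51), with 4 higher in rich members (0.31). Ctsd, the aspartic protease of the lysosome, was at 1494 CPM in rich floxed members and 783 CPM in rich Six2Cre members (ratio 1.91, 1.8 to 2.02). Lipa, which frees cholesterol and fatty acids from engulfed lipoproteins, was at 171 CPM and 76.1 CPM (ratio 2.25). The protease genes Ctss, Ctsc and Ctsz had ratios of 1.03, 0.991 and 1.07 in rich members, near 1. Lyz2 was at 2278 CPM in rich floxed members and 1043 CPM in rich Six2Cre members.

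Iron genes stood at a median log2 ratio of 0.69, with 5 of 12 tested genes higher and none lower, and 3 of 13 higher in rich members (0.38). Slc40a1, the iron exporter ferroportin, was at 483 CPM in rich floxed members and 245 CPM in rich Six2Cre members (ratio 1.97, 1.78 to 2.19). Fth1, the ferritin heavy chain that stores iron, was at 8269 CPM and 5274 CPM (ratio 1.57), and at a ratio of 0.996 in endothelium and 1.02 in stroma. Hmox1, which breaks down haem, was at 1104 CPM and 969 CPM (1.14, 1.07 to 1.21) and was not called. The haemoglobin level in rich members, given by Hbb-bs at 5673 CPM and 1717 CPM, moved with these genes, and its part in the result was not tested.

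Among 11 tested lipid genes 5 were higher and 1 was lower (median 0.50). Apoe, which loads lipid onto lipoproteins, was at 13331 CPM in floxed members and 5612 CPM in Six2Cre members (rich members 18358 and 9786 CPM, ratio 1.88). Abca1, which exports cholesterol to it, was at 236 CPM in rich floxed members and 128 CPM in rich Six2Cre members (ratio 1.84, 1.59 to 2.13). Fabp4, a fatty acid carrier of macrophages and of capillary endothelium, was the lower one, with a log2 ratio of -0.95 over all members. In rich members it was at 138 CPM in the floxed library and 343 CPM in the Six2Cre library (ratio 0.402). The endothelial markers Plvap and Kdr were lower alongside it, at ratios of 0.178 and 0.417 in rich members, and their part in the Fabp4 value was not tested. In endothelial barcodes Fabp4 was itself higher, at 4931 CPM in the floxed library and 2869.7 CPM in the Six2Cre library (ratio 1.72), opposite to the members.

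Complement and receptor genes of macrophages were mostly not called. Of 7 tested complement genes 3 were higher over all members and 2 in rich members: C5ar1, the receptor for the fragment C5a (2.25, 1.85 to 2.75), and Cfp, which stabilises the alternative pathway (2.01, 1.7 to 2.37). Of 12 tested Fc receptor and adaptor genes 4 were higher over all members (median 0.38), but in rich members the median was 0.01, none was higher and 1 was lower. That gene was Fcgr4, a receptor for IgG, at 66.3 CPM in rich floxed members and 145 CPM in rich Six2Cre members (ratio 0.458, 0.368 to 0.565). The list of the CSF1 receptor pathway, which keeps macrophages alive, had no called gene in either set, and its median was 0.39 over all members and -0.04 in rich members.

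Among 15 tested macrophage transcription factors only Maf was called higher over all members, at 649.5 CPM in floxed members and 364 CPM in Six2Cre members, and it stayed so in rich members (ratio 1.66, 1.55 to 1.79). Spi1, which encodes the lineage factor PU.1, was at 346 CPM in rich floxed members and 394 CPM in rich Six2Cre members. Stat3, which transmits cytokine signals, was lower in rich members, at 58.9 CPM and 113 CPM (ratio 0.522, 0.413 to 0.655).

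**Figure D4:**
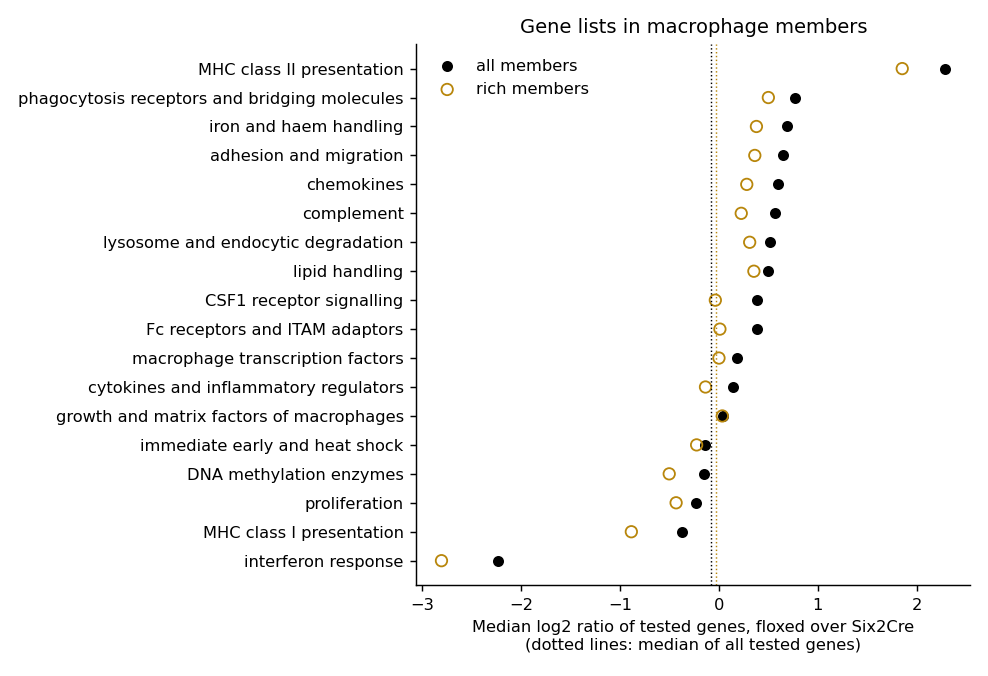
Median log2 ratio of floxed over Six2Cre for the genes of 18 lists that reached 25 CPM, in all members (filled) and rich members (open); dotted lines give the medians of all tested genes, -0.08 and -0.03. The interferon list lies lowest (-2.23 and -2.80) and the MHC class II list highest (2.29 and 1.85), and the CSF1 receptor and Fc receptor lists lie near 0 in rich members.

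MHC class II genes had the highest median of the lists, 2.29, with 6 of 7 tested genes higher over all members, but few barcodes carried them. Cd74, the chaperone of class II molecules, was at 511 CPM in floxed members and 99.3 CPM in Six2Cre members, and the chains H2-Aa, H2-Ab1 and H2-Eb1 had ratios of 6.23, 4.89 and 6.49. The 10 barcodes with the most UMIs of these 3 chains held 85.8% of them in the floxed library and 84.5% in the Six2Cre library. After thinning, 15 of 557 floxed members (2.69%, 1.51 to 4.40) had at least 3 such UMIs, against 5 of 757 Six2Cre members (0.661%, 0.215 to 1.53). Without these barcodes the median of the list was 0.64.

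These class II barcodes differed from the other members. At most 1 UMI of C1qa, C1qb and C1qc was found in 12 of the 15 floxed and 3 of the 5 Six2Cre barcodes. In the floxed class II barcodes Mrc1 was at 54.8 CPM, against 833 CPM in the other floxed members. Ccr2, a receptor of cells recruited from blood, was at 535 CPM, against 38.5 CPM in the others. Markers of dendritic cells gave 37 UMIs in 11 of the 15 floxed and 8 UMIs in 4 of the 5 Six2Cre barcodes, with Cd209a at 151 CPM in the floxed ones. They are named here by these genes, and whether they are dendritic cells was not tested. The dendritic markers Ccr7 and Cd7 were at 0 in all members of both libraries, so their absence does not set these barcodes apart.

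**Figure D5:**
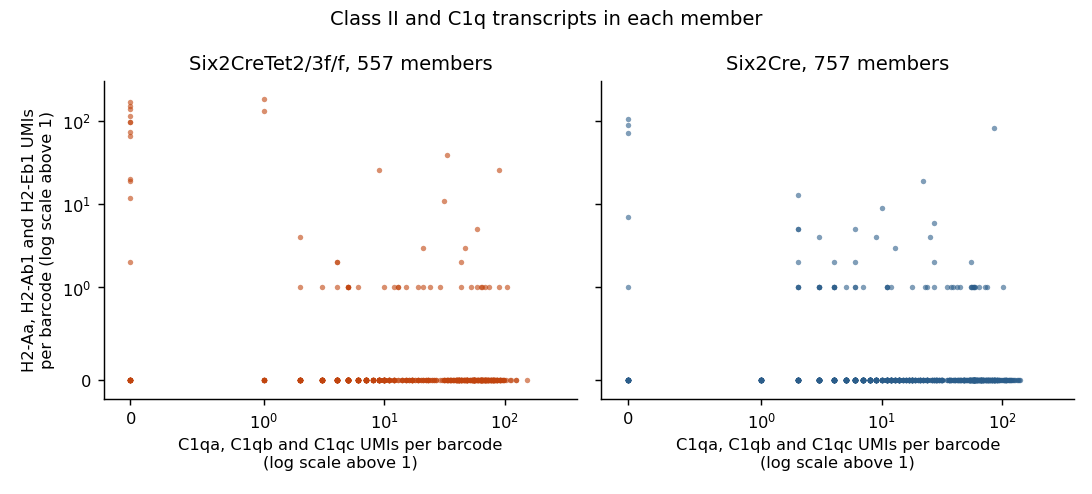
UMIs of H2-Aa, H2-Ab1 and H2-Eb1 against UMIs of C1qa, C1qb and C1qc in each member, with floxed members on the left and Six2Cre members on the right and axes on a log scale above 1. Most barcodes lie at 0 class II UMIs (506 of 557 and 696 of 757), and all 10 floxed and 4 of 10 Six2Cre barcodes with the most class II UMIs, up to 184 and 106, hold at most 1 C1q UMI.

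Chemokine genes were called in both directions. Of 14 tested, 6 were higher and 1 was lower over all members (median 0.60), and 3 were higher and 2 lower in rich members (0.28). Cxcl1, which attracts neutrophils, was at 55.5 CPM in rich floxed members and 19.9 CPM in rich Six2Cre members (ratio 2.79, 1.97 to 3.98), and Ccl8, an attractant of monocytes and lymphocytes, at 51.5 CPM and 19.9 CPM (2.59). Ccl12, a mouse monocyte attractant, was lower, at 703 CPM and 1225 CPM (0.574, 0.537 to 0.613), and Cxcl10 had a ratio of 0.173. Ccl3 and Ccl7 had intervals that include 1 in rich members, at ratios of 1.06 and 0.998.

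Of 9 tested cytokine and inflammatory genes 1 was higher and 1 lower over all members (median 0.14), and 3 were lower in rich members (-0.13). Il1b, the fever cytokine, was at 73.8 CPM in rich floxed members and 238 CPM in rich Six2Cre members (ratio 0.31, 0.254 to 0.375). It was found in 57 floxed and 145 Six2Cre members, and in neutrophils of the same libraries its ratio was 0.959 (0.856 to 1.07). Socs3, which dampens cytokine receptors, and Nfkbiz, an NF-kB cofactor, were the other lower genes, at ratios of 0.434 and 0.51. Tnf did not pass the rule (1.09, 0.949 to 1.24). Icam1, an adhesion receptor induced by inflammatory signals, was at 53.2 CPM in rich floxed members and 119.7 CPM in rich Six2Cre members.

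Depth divided the rich members of each library. In the 262 floxed and 350 Six2Cre rich members with at least 2500 UMIs, a division chosen after the data were seen, immediate early and heat shock genes were higher than in the 183 floxed and 215 Six2Cre shallow ones, with median log2 ratios of deep over shallow of 1.97 in the floxed library and 2.80 in the Six2Cre library, against 0.21 and 0.32 over all genes. By the size rule 9 of 12 such genes were higher in deep floxed members and 11 of 12 in deep Six2Cre members. Cytokine genes gave 1.73 and 2.77. Cxcl2, a neutrophil attractant, was at 1699 CPM in deep and 106 CPM in shallow floxed members. In the Six2Cre library it was at 1044 CPM in deep members and 0 in shallow ones. C1qa differed less between depths, at 3171 CPM and 1941 CPM in the floxed library. The lower Ifit3 level of the floxed library was found at both depths, with ratios of 0.0268 in deep and 0.0889 in shallow rich members.

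Of 13 tested adhesion and migration genes 5 were higher over all members (median 0.65), and 2 were higher and 1 was lower in rich members (0.36). Itga4, an integrin chain through which leukocytes bind Vcam1, was at 81.2 CPM in rich floxed members and 41.7 CPM in rich Six2Cre members (ratio 1.95, 1.51 to 2.52). Gpr34, a lysophospholipid receptor of microglia and other resident macrophages, was at 70.9 CPM and 27.9 CPM (ratio 2.54, 1.89 to 3.44). Both stood past the size rule in either set. Cx3cr1, the fractalkine receptor, was called over all members and had a ratio of 1.58 (1.43 to 1.75) in rich members, just short of the rule, and P2ry12, a microglial nucleotide receptor, had one of 0.894 (0.64 to 1.24).

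Growth and matrix factor genes stood at a median of 0.04 over all members and 0.03 in rich members, with 1 of 9 and 1 of 8 tested genes higher. Igf1, a growth factor that tissue macrophages secrete, was the called one in rich members, at 231 CPM in floxed and 128 CPM in Six2Cre (ratio 1.8, 1.56 to 2.09). Spp1, which encodes osteopontin, was the called one over all members, but 278 of its 445 floxed UMIs came from 1 barcode, and in rich members its ratio was 0.642 (0.498 to 0.821). Tgfb1, a repressor of inflammation, and Fn1, a matrix protein gene, had ratios of 1.05 and 1.12 in rich members. The immediate early and heat shock list had a median of -0.14 over all members and -0.22 in rich members, and 1 of 12 genes, Ier3, was called over all members.

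Monocyte genes were detected in fewer floxed members. At least 2 of 10 were present after thinning in 18 of 557 floxed members (3.23%, 1.93 to 5.06) and 44 of 757 Six2Cre members (5.81%, 4.25 to 7.72), and the intervals overlap. Among members with at least 6 of 8 rule genes the shares were 0.775% and 4.45%. Interferon genes were also found in 2 of the 18 floxed and 21 of the 44 Six2Cre members with monocyte genes, and a link between these differences was not tested. Ly6c2, the surface marker of inflammatory monocytes, gave 10 UMIs in 4 floxed members and 197 UMIs in 35 Six2Cre members. Poor members held 4 of these floxed and 86 of these Six2Cre UMIs. Ms4a4c, a gene of blood monocytes, was at 20.5 CPM and 45.1 CPM (ratio 0.454, 0.329 to 0.617). Ccr2 went the other way over all members, at 52.8 CPM and 26.5 CPM, and 39 of its 134 floxed UMIs came from the 15 class II barcodes.

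Cycling genes were also found in fewer floxed members. After thinning, at least 2 of 8 were detected in 50 of 557 floxed members (8.98%, 6.74 to 11.7) and 121 of 757 Six2Cre members (16.0%, 13.4 to 18.8). In stroma the shares were 11.4% and 16.4%, in endothelium 15.6% and 20.2%, and in neutrophils 9.73% and 8.05%. Without members with markers of other types, which left 144 floxed and 294 Six2Cre members, the macrophage shares were 4.86% and 18.4%. That filter included the haemoglobin limit, met by 370 floxed and 105 Six2Cre members. By level, of 20 proliferation genes none was called over all members (median -0.23), and 2 of 19 were lower in rich members, Nusap1 (0.471) and Ube2c (0.511), both genes of mitosis. Mki67, the classic proliferation marker, was at 138 CPM in rich floxed members and 190.1 CPM in rich Six2Cre members (ratio 0.728, 0.622 to 0.85).

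The targeted genes were measured in members too. Tet2 was at 26 CPM in floxed members and 47.7 CPM in Six2Cre members (ratio 0.545, 0.408 to 0.719), and Tet3 at 52.8 CPM and 88.4 CPM (0.597, 0.489 to 0.727). Neither was called over all members, and Tet2 was in rich members (0.46, 0.326 to 0.639). Over all non-members the ratios were 0.867 for Tet2 and 0.608 for Tet3. Transcripts were read at their 3′ end, which need not be the deleted part, so these counts check neither the genotype nor recombination. Of 10 tested DNA methylation enzymes 1 was called over all members and 2 of 9 in rich members. Dnmt1, which copies methylation to new DNA, was at 60.3 CPM and 59 CPM, with a ratio of 1.02 (0.834 to 1.25). Tdg, the glycosylase that removes the products of TET enzymes, was lower, at 19.7 CPM and 50.5 CPM (ratio 0.39, 0.282 to 0.53).

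Among the genes with the largest ratios, Gfra2, a receptor subunit for the growth factor neurturin on chromosome 14 (70890107 to 70979840, GRCm38), gave 123 UMIs in 96 floxed members and 1 UMI in 1 Six2Cre member. No barcode held more than 4 of its UMIs, so the count was spread over many members. Over all non-members it was at 3.1 CPM in the floxed library and 0.957 CPM in the Six2Cre library. Tpm3-rs7 (192 and 3.03 CPM) and Rnaset2b (3.94 and 57.4 CPM) also were close to present in 1 library only. Both have near-identical copies, between which reads can be split, and are uncertain. Their difference was not particular to macrophages. Over all non-members Tpm3-rs7 was at 88.1 CPM in the floxed library and 3.51 CPM in the Six2Cre library, and Rnaset2b at 3.25 and 39.3 CPM. Several others rested on single barcodes: all 84 floxed UMIs of Tff3, a peptide of mucous epithelia, came from 1 barcode, and the epithelial genes Guca2a, Psca, Sprr1a and Upk3a had 93.8% to 96.9% of their floxed UMIs in 3 barcodes. The proximal tubule genes Slc22a6, Cpn1, Mep1a and Kap stood among the lowest ratios over all members (0.0582, 0.0833, 0.114 and 0.133), and none of them was called in rich members.

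In rich members the highest ratios carried by at least 20 barcodes, a list chosen after the data were seen, included Vcam1, an adhesion receptor, at 254 CPM in rich floxed members and 58.1 CPM in rich Six2Cre members (ratio 4.38, 3.63 to 5.3). Pla2g7, which breaks down the lipid mediator PAF, was at 431 CPM and 110.2 CPM (ratio 3.91). The endoplasmic reticulum genes Hspa5, Pdia6 and Manf, which help fold secreted proteins, had ratios of 2.1, 2.53 and 2.32. Hspa5 was higher outside the macrophages too, with a ratio of 1.82 over all non-members, whereas Vcam1 was at 16.8 CPM in floxed and 14.8 CPM in Six2Cre non-members.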

How the data were processed

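Whole newborn kidneys were dissociated, dead cells were removed and 10000 cells per library were loaded for 3′ droplet sequencing, per the labels' protocols. The authors deposited whole UMI counts per gene and barcode, made with Cell Ranger 6.0.2 on mm10 per the submitters' processing notes (6.0.1 per the file headers); the annotation release and cell calling are not given in the sources used here. For 31053 genes there were 22543 floxed and 25736 Six2Cre barcodes, more than the number loaded, with 115427704 and 197745868 UMIs. No doublet step is stated. Scrublet scores (scanpy 1.11.5) were used only in an alternative without the top 8% of barcodes, which held 38 floxed and 47 Six2Cre members, since the automatic threshold marked none in the floxed library.

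Counts were summed over members of each library and divided by their total. A count of 0 was set to a floor of 3 counts in ratios. Ratios and shares carry exact 95% intervals, which cover counting error only. Sums and intervals were computed with scipy 1.17.1, pandas 2.3.3 and numpy 2.4.6 in Python 3.11.15, figures with matplotlib 3.10.9, and TMM factors alone with edgeR 4.0.16; the calculation was tested on simulated data. Comparison classes were set by UMI rules among non-members: at least 5 UMIs of Col3a1 for stroma, at least 3 of 8 markers for endothelium and for proximal tubule, and at least 5 UMIs each of S100a8 and S100a9 for neutrophils. Genes were named from the 8 rule genes, the Tet genes, 18 function lists (called genes, abundant genes and genes of a stated role), the defining genes of 21 marker lists, the 20 genes most enriched over other barcodes and the 12 highest and 12 lowest ratios, without genes at a level that free RNA of another class could give. The members and lists were chosen with earlier results of these data known. Gene coordinates were matched by symbol for 411 of 412 named genes. Results for some of the listed genes are not reported here, although those genes are part of the list counts and medians.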

Additional observations from a re-analysis of the deposited data

Results flagged for a closer look

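A few genes passed the size rule in opposite directions in macrophages and in another class of the same libraries; none of these differences was tested, as each genotype had 1 library. Spp1 had a log2 ratio of 0.99 in members and -0.94 in stroma, with 278 of its 445 floxed member UMIs in 1 barcode. Aadat, a kynurenine aminotransferase gene, stood at -1.07 in members, against 1.09 in endothelium and 0.71 over all non-members. Cldn5, a tight junction gene of endothelium, stood at -0.90 in members and 0.65 in endothelial barcodes. Kap, an androgen-regulated gene of the proximal tubule, stood at -2.91 in members and 1.42 over all non-members, and 222 of its 279 Six2Cre member UMIs came from 1 barcode.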

How the results depend on the processing

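No paired analysis was possible because each genotype had 1 library, and for the same reason no replicate could be left out. Over 304 named genes and 13 alternatives, 3151 of 3952 log2 ratios moved by less than their counting interval, 792 moved further and 9 changed sign for a gene past the size rule; this definition of a changed sign was narrowed to genes past the rule after more changes among small ratios had been seen. Without members with markers of other types, a filter that includes the haemoglobin limit, 144 floxed and 294 Six2Cre members were left. There Spp1 stood at -2.05, Pecam1 at 0.15, Kdr at 0.27, Slc34a1 at 0.95, Kap at 2.49 and Psca at -0.32. In rich members Spp1 stood at -0.64, Kap at 0.28 and Upk3a at -0.64. Without members with markers of other types the log2 ratio of the member share was -0.59 (0.920% floxed, 1.39% Six2Cre), of the cycling share -1.92, of the resident share 1.38 and of the interferon share -2.36, and 113 genes were lower. With at least 6 of 8 rule genes the monocyte share had a log2 ratio of -2.52 (0.775% floxed, 4.45% Six2Cre). Without thinning the resident share had one of 0.30 and the interferon share -1.90. The number of higher genes was 105 in rich members and 71 with members thinned to 1000 UMIs, where 98 were lower; with a minimum of 10 CPM 366 were lower, and with 50 CPM 136. The interferon list kept a median between -2.80 and -2.06 under all 13 alternatives. The median of the CSF1 receptor list reached -0.04, of the transcription factors -0.12, of the cytokines -0.13 and of the growth factors -0.10, so these have no stable direction. The MHC class II median lay between 0.53 and 2.44. The causes were not tested. TMM scaling put the median log2 ratio of all tested genes at 0.01, against -0.08 with total UMIs, and 53.1% of calls were then higher, against 41.6%. With 18 UMIs of Ifit3 in floxed members, counting error alone spans a ratio of 0.0291 to 0.0786.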
